A study of Mus musculus with 8 samples.

Results

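Genes of cholesterol synthesis and cholesterol efflux were followed in CD11b+ cells exposed to peptidoglycan (PGN), a polymer of the bacterial cell wall. The 7 genes were chosen by name: Hmgcs1, Fdft1, Sqle, Srebf2, Abca1, Abcg1 and Lipg. All 7 were among the 18193 genes measured, and they were covered by 20 of the 34945 probe sets annotated to a single gene symbol. CD11b, a subunit of the Mac-1 integrin, marks cells of the myeloid lineage. The 4 groups were CD11b+ cells of NOD.Idd3 mice with PGN, NOD.Idd3 cells unstimulated, NOD cells with PGN and NOD cells unstimulated, with 2 single-channel arrays in each. PGN was given at 5 µg/ml for 4 h at 37 °C before RNA was extracted, and the unstimulated cells had medium alone. NOD mice develop autoimmune diabetes spontaneously, and NOD.Idd3 is a congenic strain with another allele of Idd3, a diabetes susceptibility interval around the Il2 gene. The sources used here give neither the tissue the cells came from, nor the ages of the mice, nor whether a sample was 1 animal or a pool. The labels call the replicates biological without saying what was repeated, and p-values measure the spread between these samples.

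Cholesterol is built from acetyl-CoA through mevalonate, squalene and lanosterol, and the transcription factor SREBP-2 turns the pathway's genes on when sterols in the endoplasmic reticulum are low. When sterols are plentiful, oxysterols activate the nuclear receptor LXR, which induces the transporters that pass cholesterol to apolipoproteins and lipoprotein particles. In macrophages this balance is known for its part in foam cell formation and in signalling by Toll-like receptors.

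The promoters of 3 of the 7 genes, matched by symbol in RefSeq (GRCm38.p6), are shown. These genes stand at the synthesis end (Hmgcs1), the control point (Srebf2) and the efflux end (Abca1) of this balance. Each line gives the 250 bases before the start used in the RefSeq promoter table, 5′ to 3′ on the gene's own strand. For Hmgcs1 and Srebf2 that start is the first base of the annotated gene, and for Abca1 it lies 93 bases inside the gene's annotated span. Capitals mark the sterol regulatory element core TCACNCCA, which SREBP binds, the CCAAT box (read as ATTGG on the opposite strand) and, in Abca1, a direct repeat of the LXR type (GGTNA, any 5 bases, GGTNA), read on the opposite strand. The windows are chr13:119690101-119690350 (plus strand) for Hmgcs1, chr15:82147019-82147268 (plus strand) for Srebf2 and chr4:53159896-53160145 (minus strand) for Abca1.
Hmgcs1: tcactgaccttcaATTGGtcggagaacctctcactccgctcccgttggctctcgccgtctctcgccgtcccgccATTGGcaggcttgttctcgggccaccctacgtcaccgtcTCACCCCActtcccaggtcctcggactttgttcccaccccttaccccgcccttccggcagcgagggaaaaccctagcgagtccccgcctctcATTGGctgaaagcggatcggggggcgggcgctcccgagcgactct
Srebf2: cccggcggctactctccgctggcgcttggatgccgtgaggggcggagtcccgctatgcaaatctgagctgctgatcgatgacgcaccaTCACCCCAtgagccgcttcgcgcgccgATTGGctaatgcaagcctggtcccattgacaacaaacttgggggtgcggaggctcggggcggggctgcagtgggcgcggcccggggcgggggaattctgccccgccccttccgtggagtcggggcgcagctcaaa
Abca1: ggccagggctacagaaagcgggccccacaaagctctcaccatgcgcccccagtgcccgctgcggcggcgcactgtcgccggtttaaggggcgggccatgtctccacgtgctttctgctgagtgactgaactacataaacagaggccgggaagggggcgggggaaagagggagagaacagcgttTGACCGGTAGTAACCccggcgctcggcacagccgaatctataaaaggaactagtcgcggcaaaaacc

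Hmgcs1 and Srebf2 each held 1 sterol element core, at bases -137 to -130 and -162 to -155 before the start. The Srebf2 window had 1 CCAAT box, at -135 to -131, and the Hmgcs1 window had 3, at -237, -176 and -45. Abca1 held the LXR type repeat at -67 to -53, with an E-box, CACGTG, at -147 to -142 and a TATA box, TATAAA, at -29 to -24. The repeat and the TATA box of Abca1 thus lie within the annotated span of the gene, and the E-box lies before it. Both strands were searched and no 2 matches overlapped. Among 32851 promoters of the same length, the sterol element core was found in 3.67%, CCAAT in 33.8%, the LXR type repeat in 0.621%, TATAAA in 12.4% and CACGTG in 6.02%. The NF-kB motif, found in 7.25% of promoters, was not matched in these 3 windows. A match of letters is a description and not a site shown to be bound.

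Values are log2 of the deposited linear intensities, so a difference of 1 is a 2-fold difference, and each gene was read at its probe set with the highest mean. Levels of different genes cannot be compared on this scale, since probes differ in their response, and comparisons are made within a probe set. The arrays' 25th percentiles lay between 4.28 and 4.57, which gives a guide to background. In these bulk samples, fewer cells of a type and less RNA per cell cannot be told apart. The arrays of a group correlated across genes at 0.985 to 0.991. The 8 CD11b+ myeloid marker genes were measured above the 25th percentile in all 4 groups, with group means of 8.12 to 8.88 for Itgam, which encodes CD11b. Of these 8 markers 0 passed the test for PGN. Over all marker lists, 3 of 75 measured genes rose with PGN and 10 fell, where 4.86% of all genes rose and 6.4% fell. Of 5 platelet markers 2 fell, Pf4 (-1.55 on the log2 scale) and Ppbp (-2.67), while Itga2b (0.32), Gp1bb (0.03) and Gp9 (-0.12) did not pass. Of 8 neutrophil markers 3 fell (Mmp8, Mmp9 and Cxcr2). Single markers of other types also fell. They were 1 of 4 monocyte genes, Cx3cr1 (-2.66, limma adjusted p = 0.00236), and 1 of 6 T cell genes, Cd3d (-1.48, adjusted p = 0.00334). Of 5 eosinophil genes Siglecf fell (-1.16, adjusted p = 0.0353), and of 8 macrophage genes Vsig4 (-0.67, adjusted p = 0.0337). Of 5 NK cell genes Prf1 fell (-0.52, adjusted p = 0.0488). Changes above 0 were seen in 1 of the monocyte, 2 of the eosinophil, 2 of the macrophage and 2 of the NK cell genes, and 0 of these passed. The T cell gene Il7r rose by 1.04 (adjusted p = 0.00424), and the other 2 that rose were endothelial. The summed platelet level (log2) was 9.51 to 10.09 in NOD.Idd3 with PGN against 10.84 to 11.67 unstimulated, and 10.11 to 10.38 in NOD with PGN against 11.75 to 12.66 unstimulated. The summed neutrophil level was 16.56 to 16.57 in NOD.Idd3 with PGN against 16.69 to 17.11 unstimulated, and 16.60 to 16.64 in NOD with PGN against 16.82 to 16.84 unstimulated. The part of these shifts in the PGN values that follow was not tested.

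PGN raised the cholesterol exporter gene Abca1 and the lipase gene Lipg, and left no detected change in the brightest probe sets of the 3 synthesis genes and of Srebf2. Averaged over strains, 2 of the 7 genes passed limma at a Benjamini-Hochberg adjusted p under 0.05, both higher, where 11.3% of all genes passed in either direction, 4.86% as higher and 6.4% as lower. On all 4 PGN arrays Abca1 and Lipg lay above all 4 unstimulated arrays, as did 8.6% of all genes. Abcg1 lay below on all 4, as did 9.41% of all genes. The median log2 change was 0.07 over the 7 genes and 0.05 over all genes.

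**Figure D1:**
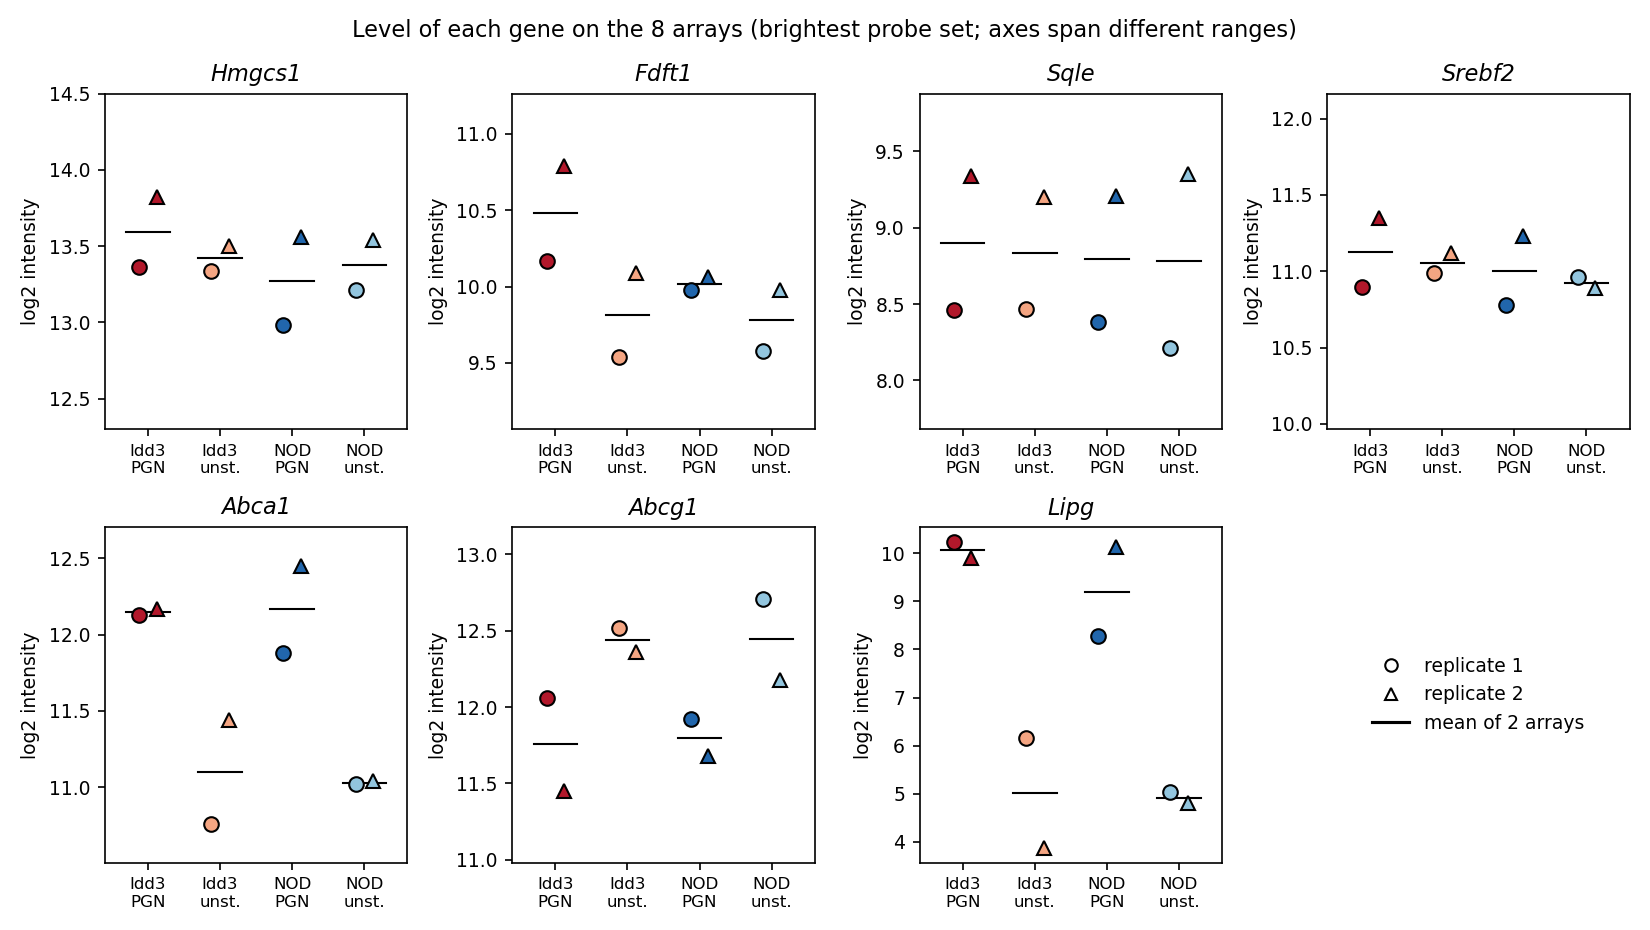
Log2 intensity (y axis) of each of the 7 genes on the 8 arrays, with NOD.Idd3 (Idd3 on the axis) and NOD cells with PGN left of their unstimulated (unst.) cells. Circles are replicate 1, triangles replicate 2 and lines the mean of 2 arrays. Abca1 and Lipg are higher and Abcg1 is lower on every PGN array, and the triangles of Sqle lie above its circles in all 4 groups.

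Lipg encodes endothelial lipase, a secreted phospholipase that acts on high-density lipoprotein. Its log2 values were 10.23 and 9.91 in NOD.Idd3 cells with PGN, against 6.15 and 3.88 unstimulated. In NOD cells they were 8.27 and 10.14 with PGN, against 5.04 and 4.80 unstimulated. The 4 PGN arrays stood apart from the 4 unstimulated arrays without overlap, with the first NOD replicate the lowest of the PGN arrays. In linear units the brightest probe set read 1200 and 960 with PGN against 71.1 and 14.7 unstimulated in NOD.Idd3, and 309 and 1130 against 32.9 and 27.9 in NOD. Averaged over strains the change was 4.67 ± 0.52 (SE, 4 arrays per condition), a 25.4-fold rise with an interval of 3.48 to 5.85 on the log2 scale (limma adjusted p = 0.00115). Because 3 of the 4 unstimulated values were 5.04 or lower, close to the arrays' 25th percentiles or below them, the size of the rise is limited by background.

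Within strains, Lipg rose by 5.06 ± 0.74 in NOD.Idd3 (limma adjusted p = 0.0127) and by 4.28 ± 0.74 in NOD (adjusted p = 0.0171). It was the 1 gene of the 7 that passed in each strain, where 3.14% of all genes passed in NOD.Idd3 and 3.94% in NOD. The change within a replicate number was 4.08 and 6.03 in NOD.Idd3 and 3.23 and 5.34 in NOD, so it was larger in replicate 2 in both strains. Without any 1 array the change stayed between 3.92 and 6.19 in NOD.Idd3 and between 3.35 and 5.22 in NOD. Some of these smaller fits leave a lone array in a group compared. A call lost in them therefore cannot show whether or not the rise rested on single arrays. The call within a strain was lost in some of them. It was lost in NOD.Idd3 without unstimulated replicate 2 (3.92, adjusted p = 0.0666 in limma), without PGN replicate 1 (4.89, adjusted p = 0.0542) and without PGN replicate 2 (5.22, adjusted p = 0.0808). In NOD it was lost without unstimulated replicate 2 (4.17, adjusted p = 0.122) and without PGN replicate 2 (3.35, adjusted p = 0.103).

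The probe sets of Lipg did not all read alike. The brightest, 1450188_s_at, is of a type that can match more than 1 transcript. A second, 1421262_at, read 10.03 and 10.02 in NOD.Idd3 with PGN against 5.75 and 3.28 unstimulated, and 8.15 and 9.88 in NOD with PGN against 4.43 and 4.04 unstimulated. It rose by 5.14 ± 0.53 (limma adjusted p over all probe sets = 0.000795). The third, 1421261_at, ranged from 4.76 to 5.67 with PGN and from 4.24 to 5.04 unstimulated, and these ranges overlapped. Its change of 0.45 ± 0.24 did not pass (adjusted p = 0.294). These values lay near the arrays' 25th percentiles of 4.28 to 4.57, so background limits what this probe set can show.

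Endothelial markers were set beside Lipg because of the name of its product. Of 6 such genes 2 rose with PGN, where 4.86% of all genes rose. They were Kdr, by 1.36 (limma adjusted p = 0.00709), and Pecam1, by 0.73 (adjusted p = 0.0279), and both are also known outside endothelium. The summed level that follows is over all 6 genes. It was 9.12 on both NOD.Idd3 arrays with PGN against 8.01 to 8.51 unstimulated, and 8.74 to 9.02 in NOD with PGN against 8.55 to 8.66 unstimulated. Cdh5, which encodes the endothelial cadherin, read 4.21 and 4.30 in NOD.Idd3 with PGN against 4.30 and 4.49 unstimulated, and 4.25 and 4.59 in NOD with PGN against 4.37 and 4.34 unstimulated. Tek and Emcn were at or below 3.88 on all 8 arrays, below every array's 25th percentile. Vwf, which platelets also carry, read 7.03 and 6.58 in NOD.Idd3 with PGN against 6.98 and 5.75 unstimulated, and 7.86 and 6.87 in NOD with PGN against 7.66 and 7.62 unstimulated. The part of these genes in the Lipg values was not tested.

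Abca1 encodes the transporter that loads cholesterol and phospholipid onto apolipoprotein A-I. Its brightest probe set read 12.13 and 12.17 in NOD.Idd3 cells with PGN, against 10.76 and 11.44 unstimulated. NOD cells read 11.88 and 12.45 with PGN, against 11.02 and 11.04 unstimulated. The PGN arrays lay above the unstimulated arrays in both strains without overlap. The averaged change was 1.10 ± 0.20, a 2.14-fold rise with an interval of 0.64 to 1.55 (limma adjusted p = 0.00969).

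The other Abca1 probe sets gave larger rises. With PGN, 1421839_at read 8.99 and 9.37 in NOD.Idd3 against 6.95 and 7.52 unstimulated, and 7.57 and 8.83 in NOD against 6.68 and 6.58 unstimulated, a rise of 1.76 ± 0.28 (limma adjusted p = 0.00481). 1450392_at read 7.47 and 7.94 in NOD.Idd3 with PGN against 5.34 and 5.59 unstimulated, and 6.38 and 6.94 in NOD with PGN against 5.27 and 5.22 unstimulated, a rise of 1.83 ± 0.19 (adjusted p = 0.000769). All 3 probe sets thus agreed in direction, with groups that did not overlap, and differed in size.

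Within single strains the Abca1 call depended on the fit. At the brightest probe set the change was 1.05 ± 0.28 in NOD.Idd3 (limma adjusted p = 0.0962) and 1.14 ± 0.28 in NOD (adjusted p = 0.0637), and neither passed. With the replicate number as a block the adjusted p was 0.0348 in NOD.Idd3 and 0.0224 in NOD. Over all probe sets, 3.03% passed in NOD.Idd3 and 4.01% in NOD. The probe set 1450392_at passed in both strains without the block, at 2.25 ± 0.26 in NOD.Idd3 (adjusted p = 0.00555) and 1.41 ± 0.26 in NOD (adjusted p = 0.0234). The difference between these strain responses, 0.83 ± 0.37, did not pass (adjusted p = 1).

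**Figure D2:**
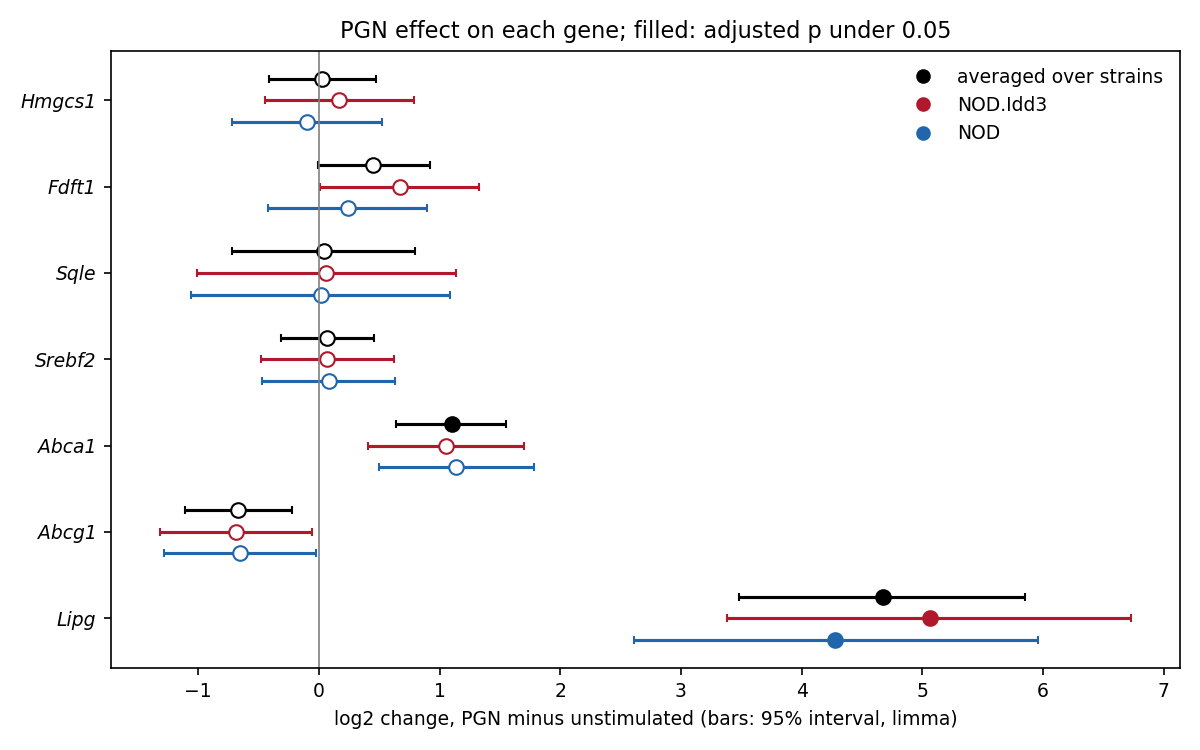
Change with PGN (x axis, log2, PGN minus unstimulated) for each gene at its brightest probe set, averaged over strains, in NOD.Idd3 and in NOD. Points are limma estimates, bars their 95% intervals, and filled points passed. Lipg passes in all 3 comparisons, Abca1 passes when averaged (1.10), and the intervals of Hmgcs1, Sqle and Srebf2 span 0.

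Abcg1 encodes a transporter that passes cholesterol to high-density lipoprotein particles, and LXR induces it together with Abca1. Its brightest probe set read 12.06 and 11.45 in NOD.Idd3 cells with PGN, against 12.52 and 12.36 unstimulated. The NOD cells read 11.92 and 11.68 with PGN, against 12.71 and 12.18 unstimulated. Each PGN array lay below each unstimulated array, by the small margin of 12.06 against 12.18 at the closest. The averaged change of -0.67 ± 0.20 (interval -1.11 to -0.22) missed the threshold in limma (adjusted p = 0.0644) and passed with the replicate block (adjusted p = 0.0145).

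The other Abcg1 probe set, 1455221_at, read 7.08 and 6.89 in NOD.Idd3 with PGN against 7.79 and 7.60 unstimulated. It read 6.59 and 6.59 in NOD with PGN, against 7.94 and 7.96 unstimulated. Here the groups were farther apart, and the level fell by 1.04 ± 0.14 on the log2 scale with PGN (limma adjusted p over all probe sets = 0.00246). By strain the change was -0.71 ± 0.20 in NOD.Idd3 (adjusted p = 0.105) and -1.36 ± 0.20 in NOD (adjusted p = 0.00939), and the difference of 0.65 ± 0.28 did not pass (adjusted p = 1). Both probe sets of Abcg1 thus lay lower with PGN while all 3 of Abca1 lay higher.

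**Figure D3:**
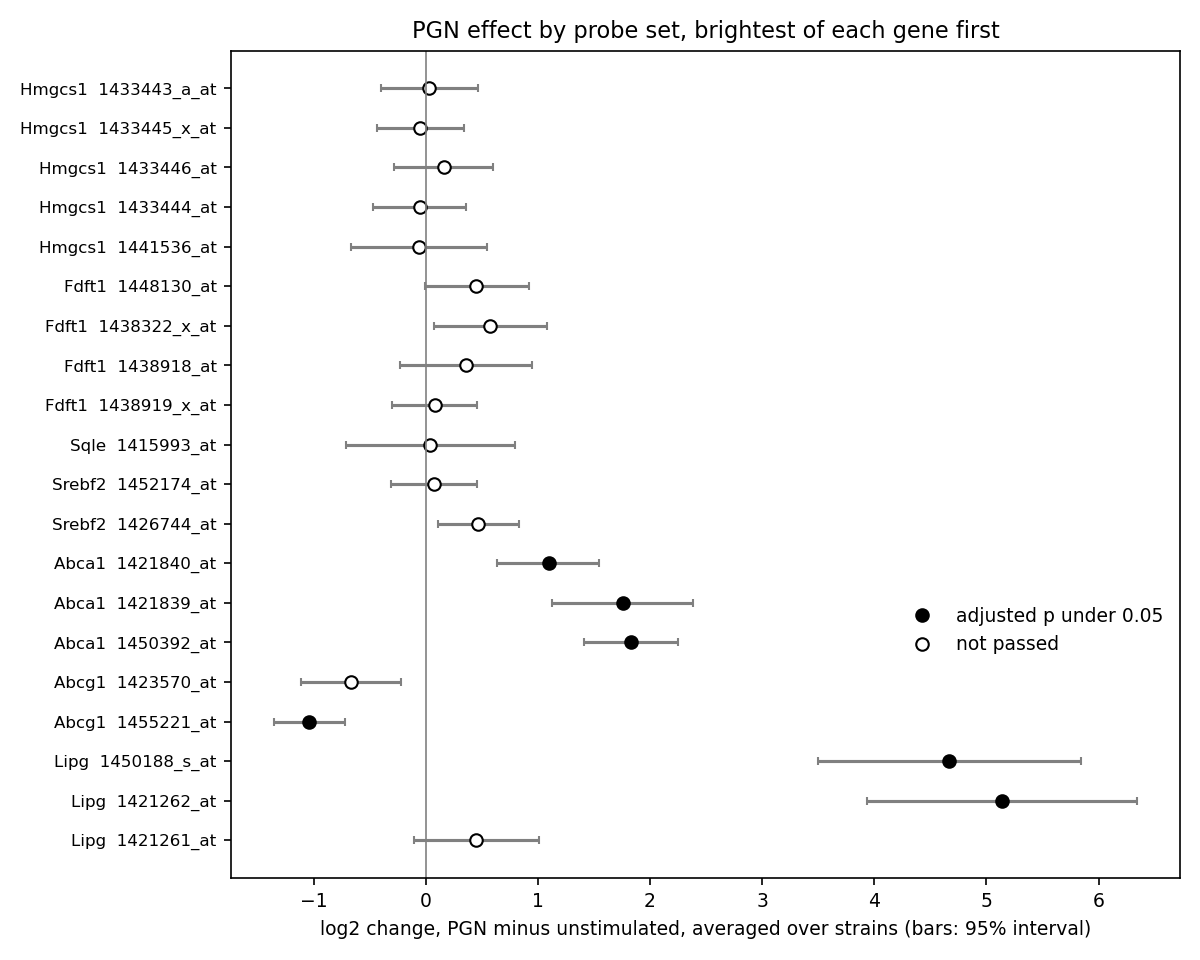
Change with PGN averaged over strains (x axis, log2) for each of the 20 probe sets, with 95% intervals and filled points for those that passed. All 3 Abca1 and all 3 Lipg probe sets lie to the right of 0, with the open point of Lipg, 1421261_at, at 0.45, and both Abcg1 probe sets lie to the left.

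Over the 20 probe sets 6 passed for the averaged PGN effect, which is set against 11.3% of all 34945 probe sets. These were 3 of Abca1, 2 of Lipg and 1 of Abcg1. None of the 12 probe sets of Hmgcs1, Fdft1, Sqle and Srebf2 passed in limma, and the smallest unadjusted p-values among them were those of Fdft1 1448130_at (0.0553), Fdft1 1438322_x_at (0.0295) and Srebf2 1426744_at (0.0165).

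Hmgcs1 encodes the cytosolic HMG-CoA synthase, the step before the rate-limiting reductase. It read 13.36 and 13.82 in NOD.Idd3 cells with PGN against 13.34 and 13.50 unstimulated, and 12.98 and 13.56 in NOD cells with PGN against 13.21 and 13.54 unstimulated. The highest array was NOD.Idd3 with PGN and the lowest NOD with PGN, and the conditions overlapped. The averaged change was 0.03 ± 0.19 (interval -0.41 to 0.47, limma adjusted p = 0.94). Its 4 other probe sets changed by -0.06 to 0.16 and did not pass.

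Fdft1 encodes squalene synthase, which commits the pathway to sterols. Values were 10.17 and 10.79 in NOD.Idd3 cells with PGN, against 9.54 and 10.09 unstimulated. In NOD they were 9.98 and 10.06 with PGN, against 9.58 and 9.98 unstimulated. Each PGN array exceeded the unstimulated array of its own strain and replicate number, by 0.64 and 0.70 in NOD.Idd3 and by 0.40 and 0.07 in NOD, but the conditions overlapped. The averaged change of 0.45 ± 0.21 (interval -0.01 to 0.92) did not pass in limma (adjusted p = 0.213), nor with the replicate block (adjusted p = 0.0709). A second probe set, 1438322_x_at, changed by 0.57 ± 0.22 (adjusted p = 0.144), and the other 2 by 0.36 ± 0.26 and 0.08 ± 0.17.

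Sqle encodes squalene epoxidase, the first oxygen-dependent step of sterol synthesis. It read 8.46 and 9.34 in NOD.Idd3 cells with PGN against 8.47 and 9.20 unstimulated, and 8.38 and 9.21 in NOD cells with PGN against 8.21 and 9.35 unstimulated. The arrays split by replicate number, all replicate 1 arrays at or below 8.47 and all replicate 2 arrays at or above 9.20. The averaged PGN change was 0.04 ± 0.33 (interval -0.72 to 0.80, limma adjusted p = 0.957). With the replicate number as a block the change was 0.04 ± 0.14 (interval -0.27 to 0.35, adjusted p = 0.871), and within a replicate number it was -0.01 and 0.14 in NOD.Idd3 and 0.17 and -0.13 in NOD.

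Srebf2 encodes SREBP-2, the membrane-bound factor that controls the synthesis genes after it is cut in the Golgi. Its brightest probe set read 10.90 and 11.35 in NOD.Idd3 cells with PGN against 10.99 and 11.12 unstimulated, and 10.78 and 11.23 in NOD cells with PGN against 10.96 and 10.89 unstimulated. The conditions overlapped, and the change was 0.07 ± 0.17 (interval -0.31 to 0.46, limma adjusted p = 0.831). The second probe set, 1426744_at, read 10.71 and 10.93 in NOD.Idd3 with PGN against 10.42 and 10.48 unstimulated, and 10.53 and 10.98 in NOD with PGN against 10.13 and 10.25 unstimulated. On that probe set every PGN array lay above every unstimulated array, but the change of 0.47 ± 0.16 did not pass (adjusted p = 0.1). An array measures the RNA and not the cutting of the protein.

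The order of group means within a gene was described next. For Hmgcs1, Fdft1, Sqle and Srebf2 the highest group mean was NOD.Idd3 with PGN (13.59, 10.48, 8.90 and 11.13 for the genes in that order). For Lipg the means were 10.07 in NOD.Idd3 with PGN, 9.20 in NOD with PGN, 5.01 in NOD.Idd3 unstimulated and 4.92 in NOD unstimulated. Abca1 averaged 12.15 in NOD.Idd3 with PGN and 12.17 in NOD with PGN, against 11.10 and 11.03 in the unstimulated cells of those strains. Abcg1 averaged 11.75 in NOD.Idd3 with PGN and 11.80 in NOD with PGN, against 12.44 and 12.45 in the unstimulated cells of those strains. At the brightest probe sets of Lipg, Abca1 and Abcg1, neighbouring means of the same condition overlapped in their arrays. There the step between conditions was the one without overlap. On Abca1 1421839_at and 1450392_at and on Lipg 1421262_at, both NOD.Idd3 arrays with PGN lay above both NOD arrays with PGN. On Abcg1 1455221_at the NOD.Idd3 arrays lay above those of NOD with PGN and below them unstimulated.

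The next question was whether the strains differed, since NOD.Idd3 and NOD differ at a locus tied to diabetes. For the difference in PGN response 0 of the 7 genes passed in limma, as did 0% of all genes, of which 314 reached an unadjusted p under 0.05. The difference, NOD.Idd3 minus NOD, was 0.77 ± 1.04 for Lipg (interval -1.60 to 3.14), -0.09 ± 0.40 for Abca1 (-1 to 0.82) and -0.04 ± 0.39 for Abcg1 (-0.93 to 0.85). For Fdft1 it was 0.43 ± 0.41 (-0.50 to 1.37) at the brightest probe set and 0.18 ± 0.44 at 1438322_x_at. At the Fdft1 probe sets near background, 1438918_at and 1438919_x_at, it was -1.02 ± 0.52 and -0.38 ± 0.34, and neither passed. Adjusted p was 1 for all 7 genes, and the intervals leave room for differences as large as the PGN changes of Abcg1 and Fdft1.

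Averaged over conditions, the strain difference ran from -0.03 ± 0.20 for Abcg1 to 0.48 ± 0.52 for Lipg, and 0 of the 7 genes passed (0% of all genes, with 1175 under 0.05 before adjustment). Hmgcs1 differed by 0.19 ± 0.19, Fdft1 by 0.25 ± 0.21, Srebf2 by 0.13 ± 0.17, Sqle by 0.08 ± 0.33 and Abca1 by 0.03 ± 0.20. These are the brightest probe sets, and some others differed more without passing. Abca1 1421839_at and 1450392_at differed by 0.79 ± 0.28 and 0.63 ± 0.19 (limma adjusted p over all probe sets = 0.613 and 0.54). Fdft1 1438918_at and 1438919_x_at differed by -0.36 ± 0.26 and -0.40 ± 0.17 (adjusted p = 0.82 and 0.661). With PGN, Abca1 1450392_at differed by 1.05 ± 0.26 (adjusted p = 0.741). Limma called 0 of the 7 genes in unstimulated cells (0% of all genes, with 611 under 0.05 before adjustment) and 0 with PGN (0% of all genes, with 984). In NOD.Idd3, 6 of 7 markers of B cells and 7 of 8 markers of macrophages had lower values (medians -1.1 and -1.4), and 0 passed. The summed B cell level was 9.34 to 9.92 in NOD.Idd3 with PGN against 10.33 to 11.14 in NOD with PGN, and 9.55 to 10.35 against 10.77 to 12.12 in unstimulated cells. The summed macrophage level was 12.72 to 13.07 in NOD.Idd3 with PGN against 13.52 to 13.54 in NOD with PGN, and 12.82 to 12.92 against 13.37 to 13.38 in unstimulated cells. The log2 difference between the 3′ and 5′ control probe sets of Gapdh was 0.72 to 0.80 in NOD.Idd3 and 0.88 to 1.16 in NOD. The part of these shifts in the strain values was not tested.

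Sqle pointed to the replicate number, so replicate 2 was set against replicate 1 within groups for all genes, a comparison chosen after these values were seen. Sqle was 0.90 ± 0.14 higher in replicate 2, a description only, since its values led to the comparison. At the brightest probe sets, Hmgcs1 (0.38 ± 0.14, limma adjusted p = 0.2) and Fdft1 (0.42 ± 0.15, adjusted p = 0.193) were also higher in replicate 2 in all 4 groups. So was Abca1 (0.33 ± 0.16, adjusted p = 0.344). The brightest Abcg1 probe set was lower in replicate 2 in all 4 groups, by a difference of -0.39 ± 0.14 (adjusted p = 0.21). Other probe sets of Hmgcs1, Abca1 and Abcg1 did not all keep these directions. In unstimulated NOD cells, Hmgcs1 1433445_x_at, 1433446_at and 1433444_at were lower in replicate 2 (11.23 against 11.47, 11.08 against 11.12 and 11.12 against 11.39).

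The same direction ran through the sterol synthesis list. Of its 14 measured genes that are not among the 7, 11 were higher in replicate 2 in all 4 groups and 0 were lower, against 16.1% and 9.33% of all genes. The median difference was 0.66 over these 14 and 0.03 over all genes. Of the 14, 5 passed as higher, where 0.473% of all genes did: Fdps, the farnesyl diphosphate synthase gene (1.08 ± 0.15, limma adjusted p = 0.0246), Cyp51 (0.92, adjusted p = 0.0377) and Nsdhl (0.92, adjusted p = 0.0379), which act from lanosterol on, Pmvk (0.81, adjusted p = 0.0364) and Idi1 (0.77, adjusted p = 0.0425), which act between mevalonate and squalene. The 14 genes share these arrays and a pathway with Sqle, whose values led to the comparison. They are not separate observations, and the counts of 11 and 5 and their adjusted p describe these arrays only. With Sqle, 6 were called, a count that is likewise a description. That count became 2 with the array-name suffix as a term and 11 with a variance trend. It was lower whichever 1 array was left out. The share of all genes called in these alternatives was not counted. The labels' array names give the replicate 1 arrays a shared date, and the sources used here do not say what else differed between the replicates.

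**Figure D4:**
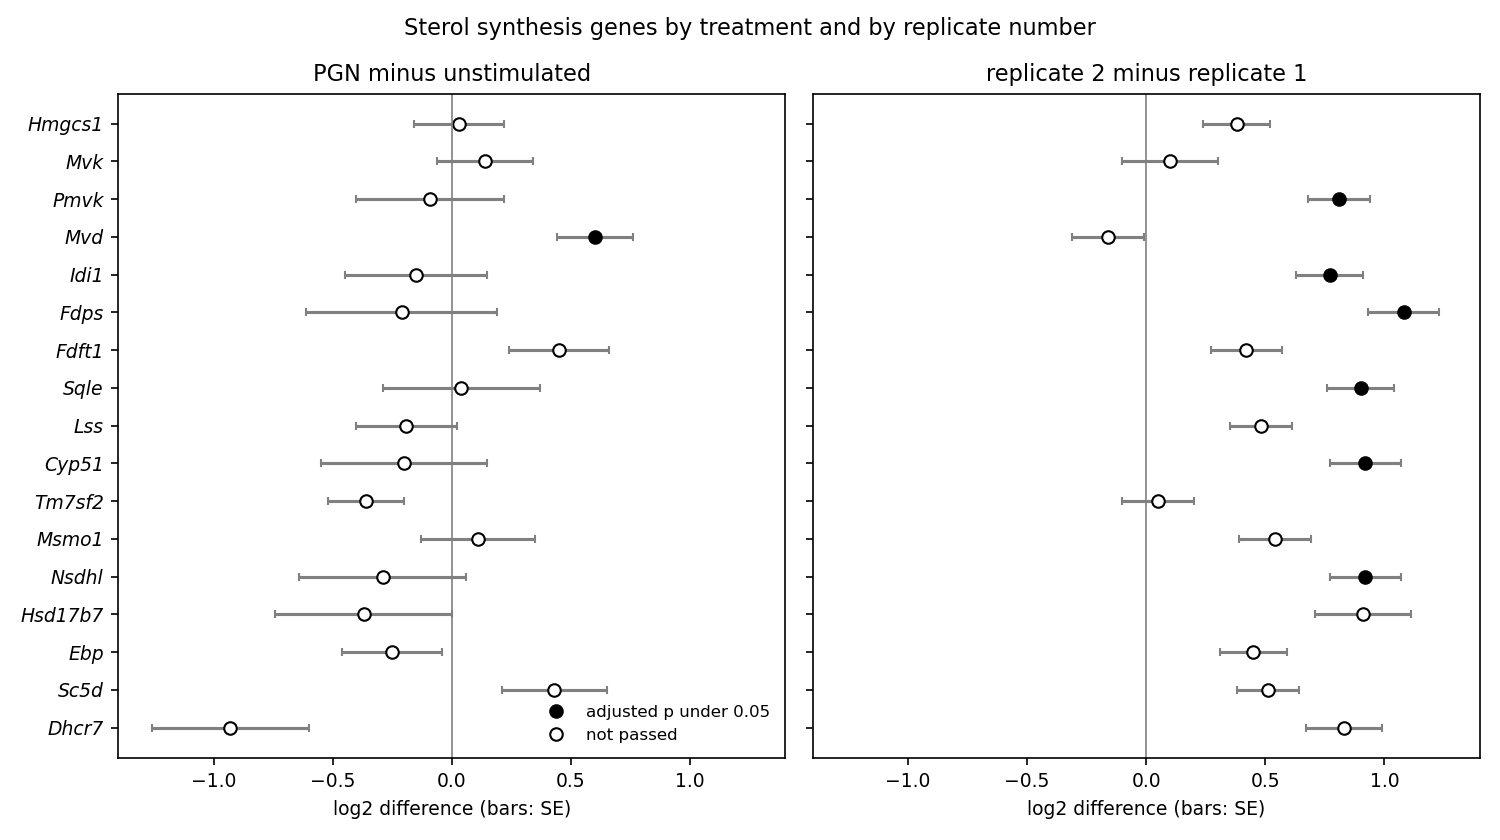
Log2 difference (x axes) of the 17 measured sterol synthesis genes, in pathway order down the page, for PGN minus unstimulated (left, averaged over strains, no replicate term) and replicate 2 minus replicate 1 (right, within groups). Bars are standard errors of the limma fits and filled points passed. The left panel has 1 filled point, Mvd, and values on both sides of 0, and the right panel has 6 filled points, with Mvd alone below 0. Sqle, whose values led to the comparison on the right, is 1 of the 6.

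With PGN, 1 of the 17 measured sterol synthesis genes rose, 0 fell and 16 did not pass, against 4.86% higher and 6.4% lower over all genes. The 1 rise is near that background, and the median was -0.15 against 0.05 over all genes. Mvd, the mevalonate diphosphate decarboxylase gene, rose by 0.60 ± 0.16 (limma adjusted p = 0.0481), with 9.76 and 9.98 in NOD.Idd3 with PGN against 9.26 and 8.97 unstimulated, and 9.92 and 9.65 in NOD with PGN against 9.51 and 9.19 unstimulated. Those conditions did not overlap, and the call was lost in 9 of 17 alternatives. Dhcr7, which encodes the last reductase of a branch, changed by -0.93 ± 0.33 (adjusted p = 0.113, and 0.00653 with the replicate block). The share of all genes that passed with the block was not counted, so block values of the list genes have no background. For the difference in response between strains, 16 of the 17 genes had a value above 0, with a median of 0.27 against 0.03 over all genes, and 0 passed. The share of all genes above 0 was not counted. The 17 genes share the same arrays, and 14 of them were higher in replicate 2 in all 4 groups, so they are not 17 separate observations.

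Genes that control SREBP and take up low-density lipoprotein gave 1 fall and 0 rises among 12 measured (median -0.21), near the 6.4% lower and 4.86% higher over all genes. Lipa, the lysosomal acid lipase that frees cholesterol from incoming esters, fell by 0.81 ± 0.21 on the log2 scale (limma adjusted p = 0.0375), a call lost in 9 of 17 alternatives. Npc1, which exports that cholesterol from the lysosome, changed by 0.43 ± 0.14 (adjusted p = 0.0982, and 0.0612 with the replicate block). Insig1, which holds SREBP in the endoplasmic reticulum and is itself an SREBP target, changed by -0.01 (adjusted p = 0.975, and 0.97 with the block). Srebf1 changed by 0.35 (adjusted p = 0.259, and 0.135 with the block). Mbtps1, the protease that makes the first cut in SREBP, changed by -0.57 ± 0.17 (adjusted p = 0.0619, and 0.0231 with the replicate block).

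Among 16 measured genes of LXR and sterol efflux, 1 rose (Abca1) and 2 fell, with a median of -0.12, where 4.86% of all genes rose and 6.4% fell. Rxrb, a partner receptor of LXR, fell by 0.82 ± 0.15 on the log2 scale (limma adjusted p = 0.0101). Apoc2, an apolipoprotein gene that LXR induces in macrophages, fell by 1.15 ± 0.22 (adjusted p = 0.0109), to 8.62 and 8.32 in NOD.Idd3 with PGN against 9.28 and 9.91 unstimulated, and to 7.19 and 6.84 in NOD with PGN against 7.87 and 8.52 unstimulated. Nr1h3, which encodes LXR alpha, changed by -0.09 and Apoe by -0.16, and neither passed. With the replicate block their adjusted p was 0.748 and 0.519 in limma. Lpcat3, a further LXR target, changed by -0.59 ± 0.16 (adjusted p = 0.0516, and 0.0183 with the replicate block). Of the 14 genes of this list that are not among the 7, 0 rose in limma, a count that the 4.86% over all genes would also give.

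Fatty acid synthesis genes, many of them SREBP targets too, gave 2 falls and 0 rises among 11 measured (median -0.16), beside 6.4% lower and 4.86% higher over all genes. Fads1, a fatty acid desaturase gene, fell by 2.12 ± 0.31 on the log2 scale (limma adjusted p = 0.0035), with 5.90 and 5.41 in NOD.Idd3 with PGN against 7.33 and 8.11 unstimulated, and 5.73 and 5.31 in NOD with PGN against 7.03 and 8.33 unstimulated. Acss2, which makes acetyl-CoA from acetate, fell by 1.33 ± 0.23 (adjusted p = 0.00759). The values of both genes did not overlap between conditions. Scd2 changed by -1.38 ± 0.49 (adjusted p = 0.118, and 0.00455 with the replicate block).

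Of 9 measured genes of oxysterol and sterol ester metabolism 1 fell and 0 rose (median -0.03), close to the 11.3% of all genes that passed in either direction. Cyp27a1, which makes a side-chain oxysterol that activates LXR, fell by 0.83 ± 0.14 on the log2 scale (limma adjusted p = 0.00692), and with the mean of its probe sets the change was -0.37 (adjusted p = 0.124). Ch25h, which makes another side-chain oxysterol, changed by -0.04 and did not pass, nor did it with the replicate block (adjusted p = 0.883). Gpr183, the receptor for a dihydroxylated oxysterol, changed by 1.5 ± 0.44 (adjusted p = 0.0642, and 0.000344 with the replicate block).

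Of 11 measured genes of these lipases and their regulators 1 rose, Lipg, and 1 fell, Lpl (median -0.04), where 11.3% of all genes passed. Lpl encodes lipoprotein lipase, a relative of endothelial lipase that acts mainly on triglyceride. It read 7.74 and 8.85 in NOD.Idd3 with PGN against 9.71 and 12.17 unstimulated, and 8.64 and 9.88 in NOD with PGN against 10.25 and 12.53 unstimulated. The conditions overlapped, since NOD replicate 2 with PGN lay above NOD.Idd3 replicate 1 unstimulated, but within each strain and replicate number the PGN array was lower. Lpl fell by 2.39 ± 0.65 on the log2 scale (limma adjusted p = 0.0487, or 0.000641 with the replicate block). The call was lost in 9 of 17 alternatives. On the same arrays Lipg was higher in each of these 4 pairs.

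**Figure D5:**
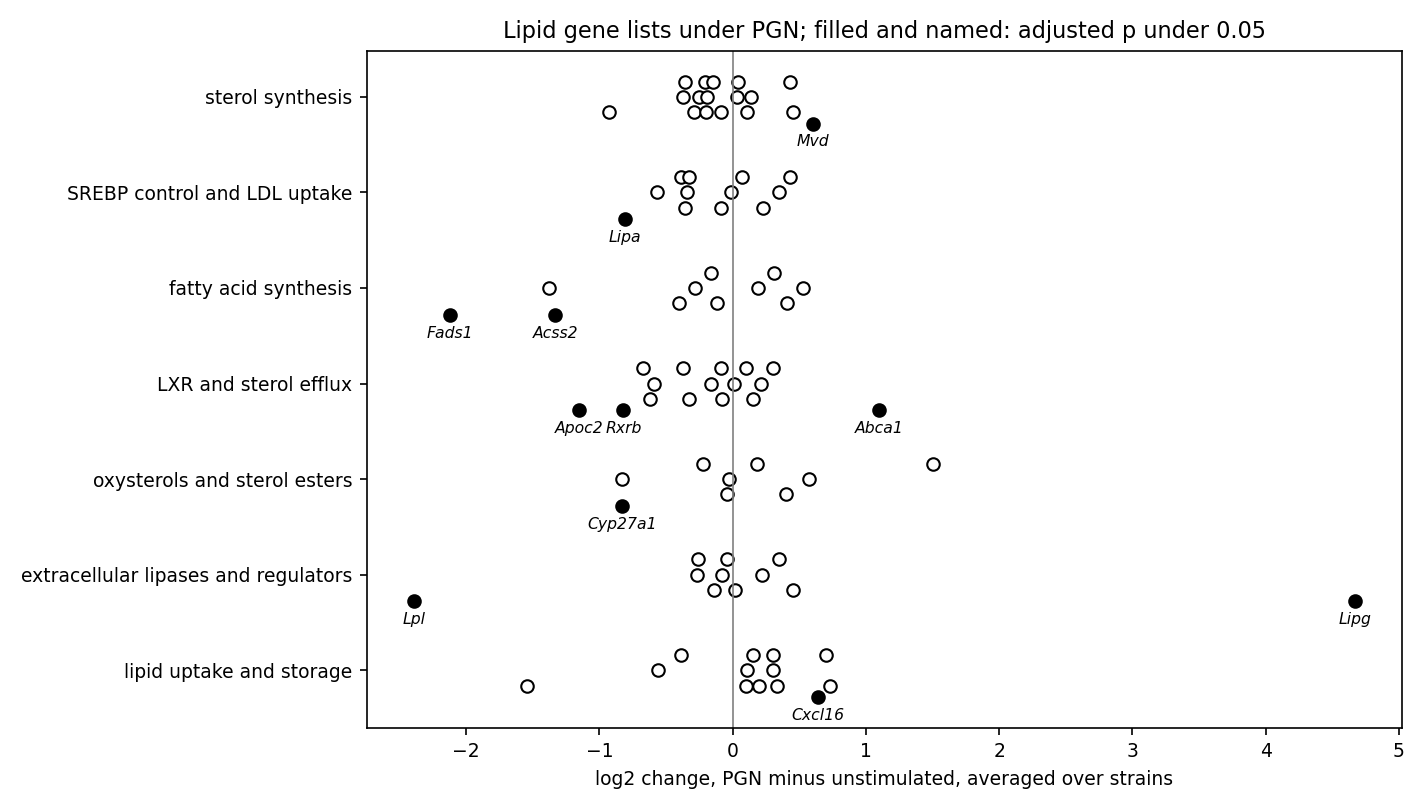
Change with PGN averaged over strains (x axis, log2) for every measured gene of 7 lipid gene lists, 1 list per row. Filled, named points passed in limma and open points did not. Lipg (4.67) and Lpl (-2.39) lie at opposite ends of the lipase row, and Abca1 is the 1 filled point above 0 in the efflux row.

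The genes whose profiles were most like each of the 7 were found by the root mean square difference over the 8 arrays, after each gene was centred on its mean, among 10916 genes above the 40th percentile. For Lipg they were Ptx3 (0.61) and Il1r1 (0.64), against its own spread of 2.47. Abca1 was nearest Gprc5b (0.16) and Kremen1 (0.17), and Abcg1 was nearest Ppp2r5a (0.08) and Myadm (0.09). The nearest to Hmgcs1 were Smc6 (0.06) and Ppib (0.07), to Sqle Ruvbl2 and Dot1l (0.11 each), to Fdft1 Commd4 (0.10) and Vta1 (0.11), and to Srebf2 Atp2a2 (0.07) and Ccz1 (0.08). Within the 7, Hmgcs1 and Srebf2 were closest (0.13) and Abcg1 and Lipg farthest apart (2.79). All these profiles share the same 8 arrays, so the distances describe them only.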

How the data were processed

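The 8 arrays held biotin-labelled total RNA and were grouped by the sample labels. The deposited table holds intensity values per probe set made by the authors with RMA, per the submitters' processing notes, on a linear scale from 3.97 to 42906. The sources used here do not name the chip definition, software or version. The log2 of each intensity was taken here, where log2 values had been planned as deposited. The platform annotation gave 64 control probe sets, 9160 without a symbol, 932 with several and 34945 of 45101 with 1, of which 34741 matched RefSeq (GRCm38.p6). Each gene was read at the probe set with the highest mean. The number of arrays limits the precision.

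Group means were fitted with limma 3.58.1 in R 4.3.3 (lmFit, eBayes, 4 residual and 4.69 prior degrees of freedom, no replicate term), adjusted over all genes within a comparison, or over all single-symbol probe sets for the probe set values. Intervals are 95% intervals. The fit was tested on simulated data. The 7 genes and the lists were chosen with earlier results of these data known. Genes named were the 7, up to 4 others per list with the smallest averaged PGN p, 8 fixed lipid genes where measured, and 2 nearest profiles each. List genes not measured were not analysed here. Replicate numbers pair the arrays: replicate 1 arrays share a date in the labels, and replicate differences correlated across genes at 0.17 to 0.42 over 6 pairs of groups. Alternatives were the replicate block, a term for the RR1 suffix of array names, a variance trend, a filter at the 40th percentile, other probe set rules, quantile normalization, median centring, omission of each array, and 4-array fits.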

Additional observations from a re-analysis of the deposited data

How the results depend on the processing

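Averaged over strains, Abca1 (0.93 to 1.56, limma adjusted p = 0.00243 to 0.0366) and Lipg (3.42 to 5.24, adjusted p = 0.00039 to 0.00651) passed in all 17 alternatives. Abcg1 (-0.85 to -0.51) passed with the replicate block (adjusted p = 0.0145), a variance trend (0.0327), the mean of all probe sets (0.00733) and without NOD.Idd3 PGN replicate 1 (-0.82, adjusted p = 0.0458). Of the 7 genes, 1 passed in NOD in the fit as reported, 2 with the replicate block, 2 with the variance trend, 2 with arrays centred on their median, 3 with the mean of all probe sets and 0 to 1 without any 1 array. In NOD.Idd3, where 1 passed as reported, 2 passed with the replicate block, 2 with the mean of all probe sets and 0 to 1 without any 1 array. The lists gave 11 called genes in the fit as reported, 20 with the replicate block and 7 to 13 without any 1 array. There were 7 each without NOD unstimulated replicate 2, NOD PGN replicate 2 and NOD.Idd3 unstimulated replicate 2. The share of all genes called in these alternatives was not counted, for the lists or for the 7 genes. A higher or lower count in an alternative therefore has no background to be set against, and it describes only. Among the genes called, Mvd, Lipa and Lpl lost their call in 9 of 17 alternatives and Cxcl16 in 8, while Fads1, Acss2, Rxrb and Apoc2 passed in all 17. The 6 sterol synthesis genes called higher in replicate 2, Sqle among them, became 2 with the array-name suffix as a term. They became 11 with the variance trend (Hmgcs1 among them, limma adjusted p = 0.0349). The count was lower whichever 1 array was left out, and it describes only, since the values of Sqle led to the comparison.

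Signs turned only in values that had not passed. With the mean of all probe sets the strain difference in response was -0.19 for Fdft1, 0.37 for Abca1 and 0.31 for Abcg1, the averaged strain difference -0.11 for Fdft1 and 0.02 for Abcg1, and the PGN change of Sc5d -0.10. After quantile normalization and after centring, the difference in response of Sqle was -0.04 and -0.09. After centring, the PGN change was 0.05 for Hmgcs1 in NOD, 0.07 for Insig1 and 0.05 for Ch25h. Without any 1 array, the averaged PGN change ran between -0.11 and 0.18 for Hmgcs1, -0.24 and 0.32 for Sqle, -0.04 and 0.19 for Srebf2, -0.08 and 0.06 for Insig1, and -0.19 and 0.02 for Nr1h3. In NOD it lay between -0.39 and 0.19 for Hmgcs1, -0.55 and 0.58 for Sqle, and -0.15 and 0.30 for Srebf2. In NOD.Idd3 it lay between -0.06 and 0.40 for Hmgcs1, -0.38 and 0.51 for Sqle, and -0.15 and 0.30 for Srebf2. The difference in response lay between -0.02 and 0.56 for Hmgcs1, -0.52 and 0.61 for Sqle, -0.43 and 0.25 for Abca1, -0.34 and 0.27 for Abcg1, and -0.37 and 1.91 for Lipg. The averaged strain difference lay between -0.20 and 0.36 for Sqle, -0.14 and 0.20 for Abca1, -0.18 and 0.13 for Abcg1, and -0.09 and 1.05 for Lipg. The replicate difference of Lipg lay between -0.94 and 0.44. The cause of these changes was not tested. Fits without 1 array leave a lone sample that is assumed to vary like the other groups. Signal near background limits the size of the Lipg rise.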

Other observations

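Genes of lipid uptake and storage, which bring modified lipoproteins and fatty acids into macrophages, gave 1 rise and 0 falls among 13 measured for the averaged PGN effect (median 0.20, against 0.05 over all genes, of which 11.3% passed). Cxcl16, a chemokine that in its membrane form is a scavenger receptor, rose by 0.64 ± 0.16 (limma adjusted p = 0.0375, a call lost in 8 of 17 alternatives), with 12.63 and 13.03 in NOD.Idd3 with PGN against 12.07 and 12.24 unstimulated, and 12.64 and 12.84 in NOD with PGN against 12 and 12.28 unstimulated. Cd36, the fatty acid and oxidised lipoprotein receptor gene, read 11.80 and 10.42 in NOD.Idd3 with PGN against 12.27 and 12.72 unstimulated, and 11.63 and 9.78 in NOD with PGN against 12.48 and 12.30 unstimulated. The Cd36 arrays did not overlap, and its change of -1.54 ± 0.42 was at the edge of the test (adjusted p = 0.0503, or 0.0184 with the replicate block). Olr1, which encodes the oxidised lipoprotein receptor LOX-1, changed by 0.73 ± 0.26 (adjusted p = 0.114, and 0.0165 with the block).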
